A study of Mus musculus with 21 samples.

Results

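The comparison set iNS5, a neural stem cell clone made from mouse fibroblasts, against NS, neural stem cells grown from mouse forebrain. Arrays were chosen by their state label, which gave 7 of the 21 arrays of the series: 4 of iNS5, labelled induced neural stem cell clone 5, and 3 of NS. The series asks whether fibroblasts can be converted into neural stem cells that keep growing, and it also holds the sister clones iNS2 (3 arrays) and iNS3 (4 arrays), the fibroblasts (MEF, 4 arrays) and embryonic stem cells. The source of iNS5, iNS2, iNS3 and MEF is given as Oct4-GiP mouse embryonic fibroblasts. The name refers to a reporter of the pluripotency gene Oct4 (Pou5f1). The source of NS is given as primary cells. The labels do not give the conversion factors, strain, sex, age or passage number, and no treatment. iNS5 is 1 clone, and per the series text its arrays, like those of NS, are technical replicates; the labels do not say whether they share an RNA extract or a culture. The p-values below measure the spread between arrays of the same line and not between separately derived lines.

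Neural stem cells are the dividing progenitors of the brain and can give rise to neurons, astrocytes and oligodendrocytes. In culture they grow as adherent or floating cells in EGF and FGF2 and are recognised by the transcription factors Sox2, Olig1 and Olig2, the intermediate filament nestin (Nes) and the fatty acid binding protein Fabp7. Fibroblasts make the collagen-rich matrix of connective tissue and respond strongly to interferon, the signal by which cells warn each other of viruses.

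Expression is given throughout as a log2 level, the background-corrected and quantile-normalised brightness of the probe that stands for a gene, and differences are iNS5 minus NS. A detection p-value under 0.01 put a gene well above background on that array. Between 15581 and 16021 of 45281 probes passed on the iNS5 arrays, and between 15229 and 15578 on the NS arrays. Across 10449 genes the iNS5 arrays correlated with each other at 0.9961 to 0.9966, the NS arrays with each other at 0.9952 to 0.9962, and iNS5 with NS arrays at 0.9663 to 0.9689; genes are not independent replicates. Slides were read from the barcode in each array title, and replicate numbers follow the order of the samples, since the labels give neither. By this reading iNS5 replicate 1 lay on the slide of the 3 NS arrays, while iNS5 replicates 2 to 4 lay on another slide. Replicate 1 is the first iNS5 value wherever the arrays are listed, so that it can be read against NS within a slide. In bulk RNA, fewer cells of a type and less RNA per cell cannot be told apart.

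Most genes lay close together in iNS5 and NS. The absolute log2 difference had a median of 0.23, and 93.5% of genes lay within 2-fold. These values include 1201 genes at background on all 7 arrays, which entered the test through another line and could not be called. They remain among the 10449 genes over which the shares of all genes were taken. Tested with limma treat against a 2-fold change, 171 genes (1.64% of 10449) were higher in iNS5 and 166 (1.59%) were lower. The difference passed 4-fold for 75 higher and 65 lower genes, and 16-fold for 8 higher and 11 lower genes. Of the higher genes, 114 were measured, that is, well above background, on all 7 arrays and 42 on every iNS5 array but no NS array. Of the lower genes, 93 were measured on all 7 arrays and 53 on every NS array but no iNS5 array. With the slide as a term in the fit, 125 genes were higher and 115 lower, and within the slide that held both lines 121 were higher and 113 lower.

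**Figure D1:**
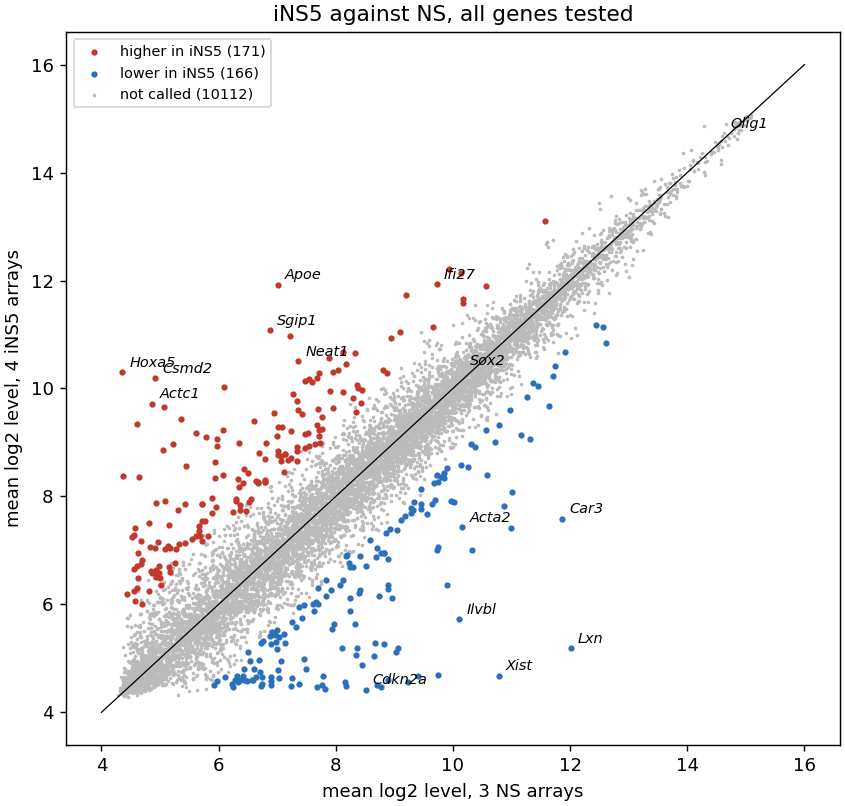
Mean log2 level of each of 10449 genes on the 3 NS arrays (horizontal axis) and the 4 iNS5 arrays (vertical axis); the line marks equal levels. The 171 higher and 166 lower genes are coloured, and Sox2 and Olig1 lie on or near the line.

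Genes that mark a neural stem cell differed little between the lines, from -0.77 for Rfx4 to 1.39 for Cspg4. Of 28 tested genes on the neural stem and radial glia list, 0 passed the limma treat test in either direction, where 3.23% of all genes tested passed. The median difference was 0.04, beside -0.03 over all genes tested. Without adjustment 1 of the 28 had a treat p under 0.05, and eBayes in limma, which tests against no change, called 9 higher and 9 lower. Sox2, which keeps neural progenitors in a stem cell state, had log2 levels of 10.32, 10.36, 10.42 and 10.23 on the iNS5 arrays and 10.12, 10.24 and 10.13 on the NS arrays. These ranges overlapped, and the difference was 0.17 ± 0.08 (SE). The second Sox2 probe gave 0.19.

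Olig1 averaged 14.73 ± 0.15 in iNS5 and 14.62 ± 0.01 in NS (SD, n = 4 and 3), and Olig2 averaged 9.07 ± 0.11 in iNS5 and 8.74 ± 0.04 in NS. Fabp7 averaged 7.74 ± 0.18 in iNS5 and 7.57 ± 0.16 in NS, with overlapping arrays. Nestin and the glutamate transporter Slc1a3, a marker of radial glia, had differences of -0.35 and -0.23. The Notch target Hes5 differed by 1.07 and the surface proteoglycan gene Cspg4 by 1.39, each with every iNS5 array above every NS array, but neither passed the test against 2-fold (adjusted p = 1 and 0.44). Pax6 and Tubb3 were on no array of either line well above background and were not tested.

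The tested proliferation genes all differed by less than 2-fold. On the cell cycle list 0 of 32 tested genes were called, and their differences lay between -0.84 for cyclin E1 (Ccne1) and 0.62 for cyclin E2 (Ccne2). The list median was -0.18, beside -0.03 over all genes tested. Counts were also 0 in both directions for cholesterol synthesis (18 genes tested), histones (35), chromatin regulators (35) and class I antigen presentation (19). Over all genes tested 3.23% were called, so few or no calls would be found in lists of this size and the counts of 0 say little. In none of these 5 lists did a gene have an unadjusted treat p under 0.05. Against no change, eBayes in limma called 2 cell cycle genes higher and 15 lower, 15 histone genes higher and 3 lower, 5 cholesterol genes higher and 3 lower, 4 chromatin genes higher and 7 lower and 3 class I genes higher and 5 lower. It called 2226 genes higher and 2779 lower over the whole table.

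Markers of other cells were checked beside this. The fibroblast markers Thy1, Col1a1, Lum and Dcn were well above background on none of the 4 iNS5 or 3 NS arrays and on all 4 MEF arrays. The microglial genes Ptprc, Aif1 and Csf1r and the endothelial genes Pecam1 and Cdh5 were on none of the 7 arrays. The short lists of myeloid, epithelial, endoderm and neural crest genes and of class II antigen genes had 0 calls. Their tested genes numbered 3, 13, 5, 5 and 4. Of these, 2, 8, 4, 4 and 3 were at background on all 7 arrays and could not be called, so the counts say little. One endoderm list gene had an unadjusted treat p under 0.05, and eBayes in limma called 4 genes of these lists higher and 3 lower. Among markers of neurons and glia, Mog and Rbfox3 were well above background on none of the 7 arrays. Dcx was on 2 iNS5 arrays and 0 NS arrays, and Mbp on 3 iNS5 and 0 NS arrays by at least 1 of its probes. The astrocyte water channel gene Aqp4 was on 4 iNS5 and 0 NS arrays. Gfap, the astrocyte filament, was on 0 iNS5 arrays and 1 NS array. Of 33 tested pluripotency genes, Gbx2 was lower and 0 were higher, where 1.59% of all genes were lower and 1.64% higher. Another 21 of the 33 were at background on all 7 arrays and could not be called. Of the 4 reprogramming factor genes 0 were called by limma treat, also with no adjustment. Against no change, eBayes in limma called 1 of them higher. Pou5f1 was on 1 array of each line, and Klf4 and Myc differed by 0.66 and -0.18. The 2 other Klf4 probes, dim in both lines, gave 0.31 and -0.15.

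Genes measured in both lines and higher in iNS5 were led by Apoe, the lipid carrier that astrocytes secrete. Apoe had log2 levels of 11.92, 11.82, 11.97 and 11.96 on the iNS5 arrays and 6.95, 6.95 and 7.12 on the NS arrays. The lines were far apart on every array, and Apoe was 30.1-fold higher in iNS5 (log2 difference 4.91 ± 0.10 SE, limma treat adjusted p = 3.7e-16). Its means were 9.09 in iNS2 and 9.38 in iNS3, between the other levels.

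Sgip1, an endocytosis adaptor of neural cells, was 18.3-fold higher, with 11.15, 11.15, 11.10 and 10.90 in iNS5 and 7.09, 6.69 and 6.86 in NS. Its 2 dimmer probes gave smaller differences of 1.13 and 1.07 that were not called. Ntm, an adhesion molecule of the neuronal surface, was 9.99-fold higher and Kcna6, a voltage-gated potassium channel, 8.92-fold higher; none of their arrays overlapped. Kcna6 had 9.16, 9.43, 9.13 and 9.26 in iNS5 and 5.99, 6.27 and 6.0 in NS, and a second probe gave 2.96.

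The long noncoding RNA Neat1, the scaffold of nuclear paraspeckles, was 8.85-fold higher in iNS5. Its levels were 10.38, 10.64, 10.46 and 10.52 in iNS5 and 7.05, 7.65 and 7.36 in NS, while iNS2, iNS3 and MEF averaged 10.72, 11.01 and 11.03. NS was thus the low line for Neat1 among these. Vxn and Ppfibp2 were 8.44-fold and 7.79-fold higher, each with a second probe called the same way. Fgfr3, a receptor for fibroblast growth factors, was 6.91-fold higher, with 9.46, 9.27, 9.54 and 9.31 in iNS5 and 6.33, 6.61 and 6.88 in NS; its second, dimmer probe gave 0.95 and was not called. Supt16, a subunit of the FACT histone chaperone, was 13.5-fold higher by its brightest probe, but its other probe gave -0.71, so its direction depends on the probe.

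**Figure D2:**
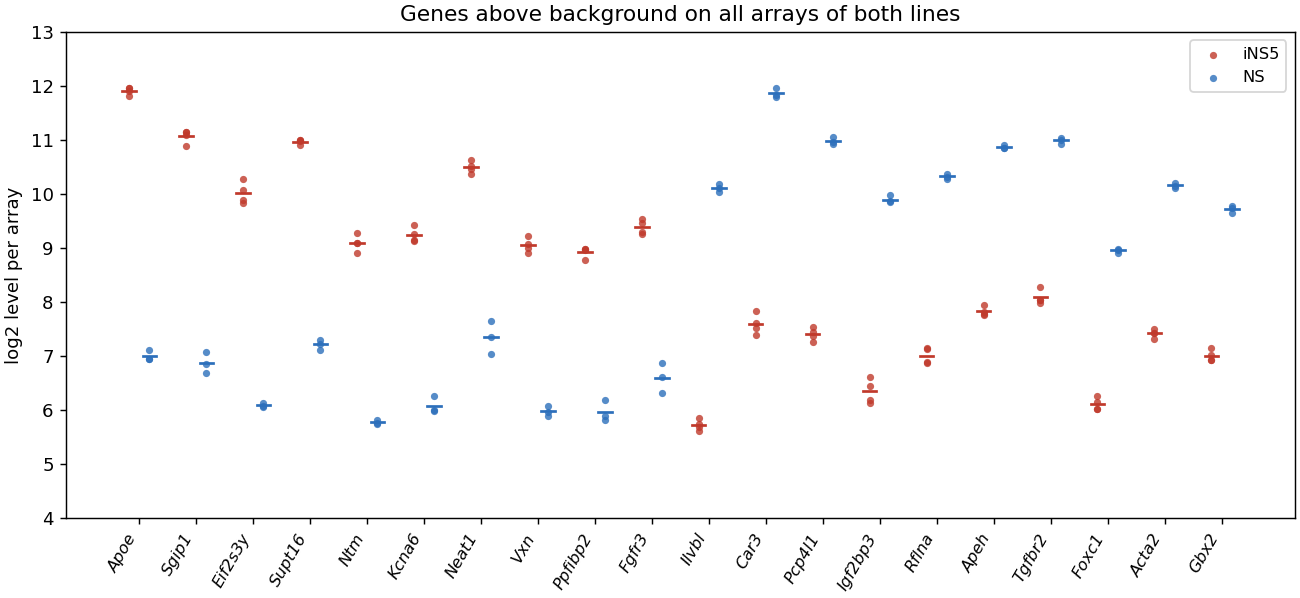
Log2 level per array (vertical axis) of the 10 genes with the largest differences in each direction among genes well above background on all 7 arrays; iNS5 arrays lie left of NS arrays for each gene and bars are means. For none of the 20 genes do the arrays of the lines overlap, and Apoe and Ilvbl differ by 4.91 and -4.38.

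Genes measured in both lines and lower in iNS5 included metabolic enzymes, a growth factor receptor and a contractile gene. Ilvbl, which encodes a lyase-like enzyme of the endoplasmic reticulum, had log2 levels of 5.86, 5.62, 5.70 and 5.75 in iNS5 and 10.19, 10.11 and 10.04 in NS. It was 20.8-fold lower in iNS5 (log2 difference -4.38 ± 0.08 SE, adjusted p = 3.3e-17), and 2 more probes gave -3.85 and -2.89. Car3, a cytosolic carbonic anhydrase, was 19.3-fold lower, with 7.40, 7.61, 7.84 and 7.52 in iNS5 and 11.96, 11.83 and 11.81 in NS. Apeh, a peptidase that removes acetylated amino acids, was 8.21-fold lower.

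Igf2bp3, an RNA-binding protein of embryonic tissue, was 11.7-fold lower, and 2 of its 3 other probes were called lower too. Tgfbr2, the type II receptor for TGF-beta, was 7.54-fold lower in iNS5, with 8.05, 7.98, 8.05 and 8.28 against 11.05, 11.01 and 10.94 in NS. A second probe of it, near background, gave -0.33. Tgfbr2 was the 1 gene called among 32 tested on the BMP and TGF-beta list. Acta2, smooth muscle actin, was 6.66-fold lower, at 7.44, 7.44, 7.50 and 7.33 in iNS5 and 10.21, 10.12 and 10.16 in NS. Of its dimmer probes, one gave -2.06 and was called, and the others gave -1.29 and -0.68 and were not. The transcription factor genes Foxc1 and Gbx2 were 7.18-fold and 6.60-fold lower, Pcp4l1 was 11.9-fold lower, and Rflna, whose protein binds filamin, was 9.98-fold lower.

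Some genes stood at background in one line and were bright in the other. For these only a lower bound of the fold can be given, set against the dimmest detected probe. The brightest in iNS5 was Hoxa5, with 10.39, 10.25, 10.41 and 10.16 in iNS5 and 4.29, 4.44 and 4.33 in NS, at least 29.5-fold higher (adjusted p = 1e-20). Csmd2, a large membrane protein of neurons, was at least 27.2-fold higher and the cardiac actin gene Actc1 at least 19.6-fold. Actc1 was the 1 gene called of 12 tested on the muscle list, where 3.23% of all genes tested were called. Of the 12, 7 were at background on all 7 arrays and could not be called.

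Olfml1 was at least 15.2-fold higher in iNS5. Myt1, a zinc finger transcription factor of neural and oligodendrocyte progenitors, was at least 10.9-fold higher, with 8.89, 8.92, 8.73 and 8.91 in iNS5 and 4.86, 5.36 and 4.91 in NS. Cox8b, a muscle form of a cytochrome oxidase subunit, was at least 7.69-fold higher, and Serpina3n, a protease inhibitor of reactive astrocytes, at least 7.64-fold. Lcn2, an iron-binding protein of the acute phase, was at least 3.99-fold higher, with 7.48, 7.27, 7.47 and 7.44 in iNS5 and 4.44, 4.51 and 4.78 in NS. Lcn2 and Cxcl10 were the 2 genes called of 20 tested chemokine, cytokine and acute phase genes, where 3.23% of all genes tested were called. Of the 20, 11 were at background on all 7 arrays and could not be called.

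In the other direction Lxn, latexin, a carboxypeptidase inhibitor, had the largest difference of all 10449 genes. Its levels were 5.00, 5.21, 5.25 and 5.31 in iNS5 and 11.95, 12.16 and 11.91 in NS, at least 102-fold lower in iNS5 (log2 difference -6.81 ± 0.08 SE, adjusted p = 1e-20). Lxn was bright in the other lines too, with means of 11.88 in iNS2, 11.04 in iNS3 and 10.85 in MEF. The membrane scaffold gene Flot2 was at least 21.4-fold lower in iNS5, at 4.44, 5.13, 4.77 and 4.40, with 9.83, 9.80 and 9.62 in NS, and its second probe gave -3.40. Flot2 was also dim in iNS2 (5.28) and bright in iNS3 (9.04).

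B9d1, which encodes a protein of the ciliary transition zone, was at least 16.8-fold lower, with a mean of 4.67 ± 0.11 in iNS5 and 9.40 ± 0.05 in NS. The microfibril gene Mfap2 was at least 15-fold lower, Smim20 at least 11.8-fold, the imprinted gene Nap1l5 at least 10.9-fold and 1700048O20Rik at least 10.3-fold. Smim20, Nap1l5 and 1700048O20Rik were also well above background on no iNS2 and no iNS3 array.

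**Figure D3:**
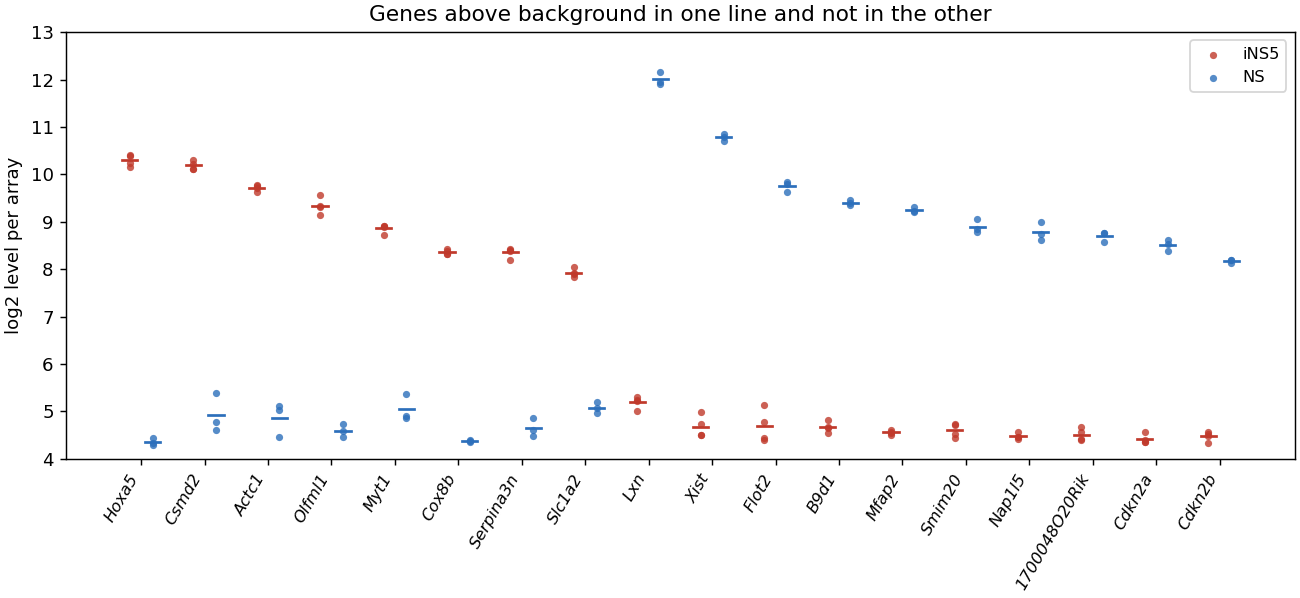
Log2 level per array (vertical axis) of 18 genes well above background on every array of one line and none of the other, iNS5 left of NS, with bars at the means. The 8 genes at left, led by Hoxa5, are bright in iNS5, and the 10 at right, led by Lxn and ending with Cdkn2a and Cdkn2b, are bright in NS.

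The cell cycle inhibitors of the Ink4 locus were at background in iNS5. Cdkn2a encodes the CDK4/6 inhibitor p16Ink4a and, from another reading frame, p19Arf, which stabilises p53; Cdkn2b beside it on chromosome 4 encodes the related inhibitor p15Ink4b. Cdkn2a had log2 levels of 4.35, 4.36, 4.39 and 4.56 on the iNS5 arrays and 8.54, 8.39 and 8.61 on the NS arrays. It was at least 9.05-fold lower in iNS5 (log2 difference -4.09 ± 0.07 SE, adjusted p = 3.3e-17).

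A second Cdkn2a probe was lower by -3.41 and was also called, and the other probe, dim in both lines, gave -0.72 and was not. Cdkn2b had 4.57, 4.52, 4.49 and 4.33 in iNS5 and 8.19, 8.13 and 8.19 in NS, at least 7.15-fold lower. The other lines had both genes: the means of Cdkn2a were 10.84 in iNS2, 9.53 in iNS3 and 11.13 in MEF, and those of Cdkn2b were 7.80, 5.94 and 10.93. Mtap, the neighbouring gene, was measured on all 7 arrays, with means of 10.85 in iNS5 and 9.72 in NS and a difference of 1.12 that was not called.

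These were the 2 genes called among 27 tested inhibitors and p53 targets (7.41%), where 3.23% of all genes tested were called. The p53 targets Cdkn1a, Mdm2 and Ccng1 had differences of -0.15, -0.28 and -1.08, none of them called. Copy number and methylation were not measured here.

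The interferon response list had 9 of 39 tested members higher in iNS5 and 0 lower, where 1.64% of all genes tested were higher; the list median was 0.08. The 5 largest were Ifitm3, which blocks virus entry, Ifi27, the chemokine gene Cxcl10, and Ifit2 and Ifit3 of the IFIT antiviral family. Ifitm3 had 8.37, 8.29, 8.41 and 8.54 in iNS5 and 6.19, 5.78 and 6.26 in NS, 5.01-fold higher. Ifi27 had 11.96, 11.97, 11.95 and 11.84 in iNS5 and 9.61, 9.66 and 9.89 in NS, 4.63-fold higher, and a second probe gave 2.13.

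Cxcl10 had 7.06, 7.02, 6.83 and 7.27 in iNS5 and was well above background on no NS array (5.02, 5.02 and 4.68), at least 3.08-fold higher. Its second probe, at background on all 7 arrays, gave 0.16 and was not called. Ifit2 was 4.22-fold higher, with 8.41, 8.53, 8.44 and 8.67 in iNS5 and 6.46, 6.63 and 6.2 in NS. Ifit3 was at least 2.27-fold higher (limma treat adjusted p = 0.022). It lost its call when any of iNS5 replicates 3 and 4 or NS replicates 1 and 2 was left out, with differences of 1.55 to 1.63. The second Ifit3 probe, at background on all 7 arrays, gave 0.45 and was not called. The other members called were Rsad2, Samd9l, Gbp2 and Usp18, with differences of 1.69, 1.55, 1.38 and 1.35; they are named because the count is small and were chosen after their values were seen.

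Isg15, a ubiquitin-like protein that interferon induces, had 6.43, 6.64, 6.60 and 6.29 in iNS5 and 4.65, 5.40 and 4.65 in NS. The arrays did not overlap, and its difference of 1.59 missed the threshold (adjusted p = 0.06). The count was 4 of 39 within the slide shared by both lines, 4 with the slide as a term and 4 with an offset of 50 in the background step. The transducers Stat2 and Irf9 differed by -0.25 and -0.19 and Irf7 was at background in both lines. In the class I antigen list B2m differed by 0.58 and H2-K1 by 0.21, neither called.

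All 10 of these genes were brighter in the MEF arrays than in NS, with MEF means of 14.83 for Ifitm3, 14.07 for Isg15 and 12.14 for Cxcl10. This was a trait of the whole interferon list and not of the called members. The mean level of the interferon list per array was 10.79 to 10.81 in MEF and 5.99 to 6.01 in NS. On the fibroblast list, 14 of 41 tested members were well above background on all iNS5 arrays and 14 on all NS arrays. The list's mean level per array was 5.94 to 6.01 in iNS5 and 6.16 to 6.24 in NS, against 11.91 to 12.02 in MEF.

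**Figure D4:**
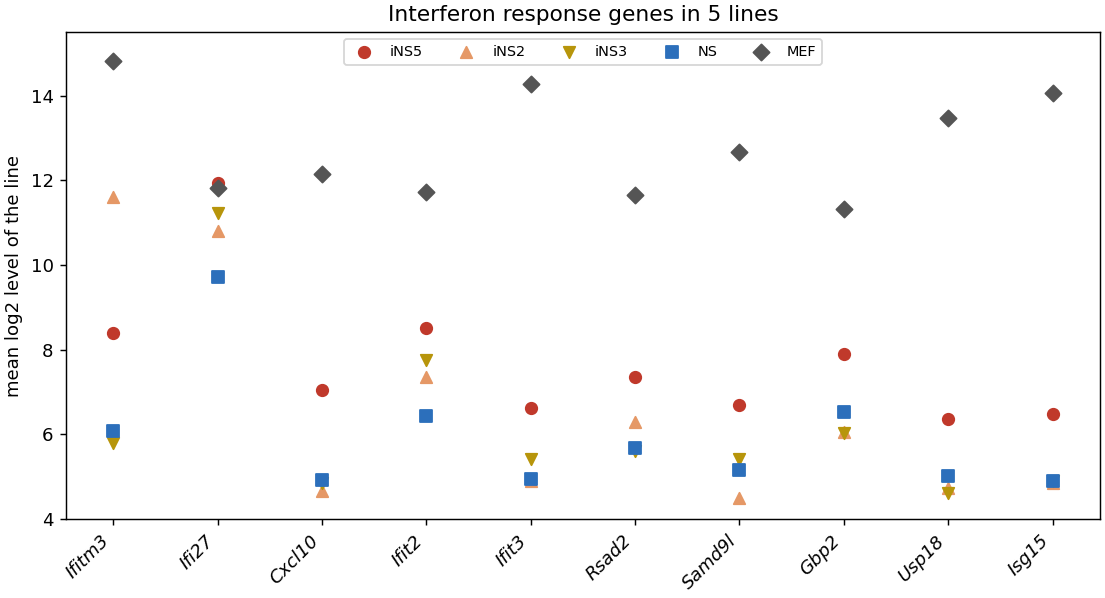
Mean log2 level (vertical axis) of the 9 called interferon response genes and Isg15 in iNS5, iNS2, iNS3, NS and MEF. iNS5 lies above NS for all 10 genes, iNS2 is higher than iNS5 for Ifitm3, and the MEF mean is highest or nearly so for each.

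Promoters of interferon genes often carry an interferon-stimulated response element, a repeat of GAAA cores. The motif searched was GAAANNGAAA, or TTTCNNTTTC on the opposite strand, in the 250 bases before and 50 after each start in the RefSeq promoter table (build GRCm38.p6). A match stood in 5 of the 7 called members listed there and in 10 of the 22 uncalled members (45.5%), against 3.44% of all 32851 windows. A member counted if any of its windows matched, whereas the share over all is per window, so these are unlike measures. The called and uncalled members thus both carried it often, and a match is a description of letters and not a site shown to be used. The stretches around the matches are shown for Cxcl10 (chr5:92349073-92349122, minus strand), Gbp2 (chr3:142620584-142620633, plus strand), Ifit3 (chr19:34583353-34583436, plus strand), Rsad2 (chr12:26456543-26456592, minus strand) and the uncalled Isg15 (chr4:156200855-156200916, minus strand) so that the matched letters can be compared between them. Each is given 5′ to 3′ on the strand of its gene, with the matched letters in capitals:
Cxcl10: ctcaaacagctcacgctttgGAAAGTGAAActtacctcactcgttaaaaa
Gbp2: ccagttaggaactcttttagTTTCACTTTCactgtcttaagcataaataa
Ifit3: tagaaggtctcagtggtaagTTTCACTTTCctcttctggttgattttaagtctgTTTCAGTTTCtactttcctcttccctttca
Rsad2: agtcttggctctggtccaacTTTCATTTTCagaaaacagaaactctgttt
Isg15: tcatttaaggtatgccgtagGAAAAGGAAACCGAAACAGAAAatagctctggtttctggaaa
The matches begin 213 bases before the start in Cxcl10, 59 in Gbp2, 156 and 122 in Ifit3 and 120 in Rsad2. Isg15 holds 3 overlapping matches between 78 and 66 bases before its start. Ifitm3 has 2 matches just after its start, and the windows of Ifit2 and Samd9l hold none.

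Genes of glial differentiation moved in both directions. On the astrocyte list 3 of 17 tested members were higher in iNS5 (Apoe, Fgfr3 and Slc1a2) and 1 was lower (Sparcl1), where 1.64% of all genes were higher and 1.59% lower, and the list median was 0.25. Slc1a2, the main glutamate transporter of mature astrocytes, had 8.04, 7.84, 7.91 and 7.89 in iNS5 and 5.07, 4.96 and 5.20 in NS, at least 5.65-fold higher, and 1 of its 2 other probes was called too. Sparcl1, hevin, a synapse-forming protein that astrocytes secrete, ran the other way, with 4.75, 5.08, 5.10 and 5.35 in iNS5 and 8.21, 8.29 and 8.54 in NS. It was at least 8.08-fold lower in iNS5, where 1 of 4 arrays was well above background.

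Aqp4 differed by 0.93 and Gfap by -0.26, neither called. On the oligodendrocyte list 1 of 17 members (5.88%) was called, where 3.23% of all genes tested were called. This was the myelin glycoprotein gene Omg, 2.84-fold higher at 9.22, 9.16, 9.35 and 9.17 in iNS5 and 7.52, 7.88 and 7.77 in NS. On the neuronal list 1 of 16 (6.25%) was called, beside the same 3.23%. This was Gad1, which makes the transmitter GABA. Gad1 was 3.36-fold higher, with 8.73, 8.96, 8.67 and 8.68 in iNS5 and 6.76, 7.15 and 7.13 in NS, and a second probe gave 1.82.

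Among 28 ion channel genes, Kcna6 and the potassium channel gene Kcnd2 were higher and 0 were lower. This was 7.14% of the list, where 3.23% of all genes tested were called. Kcnd2 was 5.10-fold higher, with means of 10.31 ± 0.10 in iNS5 and 7.96 ± 0.13 in NS. On the neural matrix and adhesion list 1 of 44 (2.27%) was called, a smaller share than over all genes tested. This was contactin 1 (Cntn1), 3.81-fold higher at 9.62 ± 0.03 in iNS5 and 7.69 ± 0.03 in NS.

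Some regional genes differed between the lines. Hox genes are ordered along the body axis and are normally silent in the forebrain, whereas Otx2 marks forebrain and midbrain. Of 21 tested Hox genes 3 were higher in iNS5 (Hoxa5, Hoxa4 and Hoxa7), all of the A cluster on chromosome 6, and 0 were lower, where 1.64% of all genes were higher. Another 14 of the 21 were at background on all 7 arrays and could not be called. Hoxa4 had 7.28, 7.01, 7.02 and 6.83 in iNS5 and 4.77, 5.08 and 5.66 in NS, and Hoxa7 had 6.46, 6.77, 6.56 and 6.55 in iNS5 and 5.00, 5.01 and 4.56 in NS. Neither pair of ranges overlapped, and the differences were 1.87 and 1.73. Hoxa7 lost its call within the shared slide, where its difference was 1.60. With an offset of 50, Hoxa5 was the 1 Hox gene called.

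Hoxa2 was also well above background on 4 iNS5 arrays and 0 NS arrays, with an uncalled difference of 1.62, and Hoxa13 was measured on all 7 arrays with a difference of 0.10. The 16 tested B, C and D cluster genes were at background on every iNS5 array; most were tested only because a line had to show a gene on all its arrays and MEF did. Hoxd11 was on the 3 NS arrays. Hoxa5 averaged 10.30 in iNS5, 10.62 in iNS2, 10.38 in iNS3 and 7.99 in MEF.

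Otx2 was at background in iNS5 (4.31, 4.46, 5.21 and 4.67) and measured in NS (6.81, 6.78 and 6.62), at least 2.65-fold lower. It was the 1 gene called of 6 tested on the forebrain list, where 3.23% of all genes tested were called. The array holds 23 genes of this list. Those not tested were well above background on all arrays of no line, NS included, so the list says little about forebrain identity. Otx2 was at background in iNS2 and iNS3 as well, with means of 4.73 and 4.70. Otx1 and Dlx1 differed by -0.26 and 0.45. On the midbrain, hindbrain and spinal cord list Gbx2, an anterior hindbrain gene, was lower. Egr2 (Krox20), a hindbrain segment gene that growth factors also induce, was higher. These were the calls among 11 tested, beside the same 3.23%. Gbx2 had 7.16, 6.93, 6.93 and 7.03 in iNS5 and 9.79, 9.75 and 9.65 in NS, and Egr2 had 9.33, 9.10, 9.19 and 9.20 in iNS5 and 7.24, 7.37 and 7.10 in NS.

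The fibroblast and collagen genes called between the lines were all lower in iNS5. On the fibroblast and mesenchyme list, 4 of 41 members were lower (Acta2, Serpinf1, Col5a1 and Fbln2) and 0 were higher, where 1.59% of all genes were lower. Of the 41, 21 were at background on all 7 arrays and entered the test through another line, so they could not be called and the list median of -0.03 says little. Serpinf1, an anti-angiogenic serpin, was at background in iNS5 (4.96 ± 0.15) and measured in NS (7.06 ± 0.11), at least 3.31-fold lower, although its second, dim probe gave -0.01. Col5a1 was 2.89-fold lower, at 7.38, 7.35, 7.33 and 7.49 in iNS5 and 8.85, 9.01 and 8.90 in NS, and Col4a6, a basement membrane collagen, at least 2.00-fold lower. These were the 2 called of 20 collagens, beside the same 1.59% of all genes. Of the 20, 10 were at background on all 7 arrays and could not be called. The matrix gene Fbln2 was 2.70-fold lower and lost its call within the shared slide (difference -1.39), as did Col4a6 (difference -1.59).

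In the signalling lists, 10% of Notch genes, 8.33% of EGF and FGF genes, 10% of axon guidance genes, 2.86% of Wnt genes and 3.12% of BMP and TGF-beta genes were called, where 3.23% of all genes tested were. At background on all arrays of both lines, and so not callable, were 9 axon guidance, 9 Wnt and 7 BMP and TGF-beta genes. In the Notch list Mfng was 3.00-fold higher and Lfng 3.01-fold lower, of 20 tested; both encode Fringe enzymes that add sugars to Notch receptors. Mfng had 8.18, 8.46, 8.17 and 8.19 in iNS5 and 6.59, 6.74 and 6.67 in NS, and Lfng had 5.59, 5.70, 5.62 and 5.77 in iNS5 and 7.48, 7.25 and 7.05 in NS. Lfng lost its call with the slide as a fixed term (-1.67) and with an offset of 50 (-1.14). In the EGF and FGF list Fgfr3 was higher and Dusp4, a phosphatase that switches off MAP kinases, was 2.51-fold lower, of 24 tested. The 2 dimmer Dusp4 probes gave -0.78 and -0.45 and were not called, and without NS replicate 2 Dusp4 lost its call (-1.30). The Wnt receptor gene Fzd9 was 3.04-fold lower, the 1 call of 35 on the Wnt list.

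Of 30 axon guidance genes 3 were lower and 0 higher. Sema5a was 3.21-fold lower, with 6.28, 6.12, 5.93 and 6.31 in iNS5 and 8.0, 7.69 and 7.85 in NS, and a second probe gave -1.80. Sema6d and the semaphorin receptor gene Plxnb2 were 2.69-fold and 2.58-fold lower. Within the shared slide Sema6d, Plxnb2, Dusp4 and Mfng were no longer called, at -1.31, -1.36, -1.41 and 1.52.

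The imprinted list had 3 of 28 tested members lower and 0 higher, where 1.59% of all genes were lower and 1.64% higher, and 8 of the 28 were at background on all 7 arrays. Imprinted genes are expressed from only the maternal or only the paternal copy. Nap1l5 had 4.56, 4.46, 4.46 and 4.41 in iNS5 and 8.61, 8.74 and 8.99 in NS. Ndn, necdin, was 2.74-fold lower, with 8.83, 8.84, 9.03 and 8.97 in iNS5 and 10.36, 10.35 and 10.39 in NS. Peg10 was at least 3.17-fold lower (adjusted p = 0.024) with 3 of 4 iNS5 arrays well above background, and it lost its call without iNS5 replicate 1 or 3 or NS replicate 1 or 2 (differences of -1.54 to -1.69). Igf2, a fetal growth factor, was well above background on 4 iNS5 arrays and 0 NS arrays, with an uncalled difference of 1.21.

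In the metabolic lists, 10.7% of glycolysis and hypoxia genes, 8% of antioxidant and metallothionein genes, 5% of one-carbon genes and 2% of respiratory chain genes were called, where 3.23% of all genes tested were. Of 28 glycolysis and hypoxia genes, the neuronal enolase gene Eno2 was 4.53-fold higher, with 8.93, 9.05, 8.91 and 9.07 in iNS5 and 6.79, 6.81 and 6.82 in NS. The phosphofructokinase gene Pfkp and the mitochondrial adenylate kinase gene Ak4 were 2.87-fold and 2.79-fold lower, and Pfkp lost its call within the shared slide (-1.34) and had a second probe at -0.84 that was not called. Cbs, which turns homocysteine into cystathionine, was the 1 call of 20 one-carbon genes. Cbs varied among the iNS5 arrays (4.62, 5.12, 5.81 and 5.26, with 1 of 4 well above background), all below NS (8.16, 8.02 and 8.11), and was at least 6.30-fold lower.

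Of 25 antioxidant and metallothionein genes, the glutathione transferase gene Gsta4 was 4.56-fold lower and Txnip, which inhibits thioredoxin, 2.91-fold lower. Of 50 respiratory chain genes, Cox6b2, a testis form of a cytochrome oxidase subunit, was at least 3.20-fold lower. The endothelial list had 1 higher and 1 lower gene of 9 tested, where 3.23% of all genes tested were called. Of the 9, 4 were at background on all 7 arrays and could not be called. Flt1, a VEGF receptor, was at least 1.70-fold higher, at 6.32, 6.0, 6.27 and 6.16 in iNS5 and 4.39, 4.43 and 4.48 in NS, and Emcn was at least 2.14-fold lower; the defining genes Pecam1 and Cdh5 were at background in both lines.

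**Figure D5:**
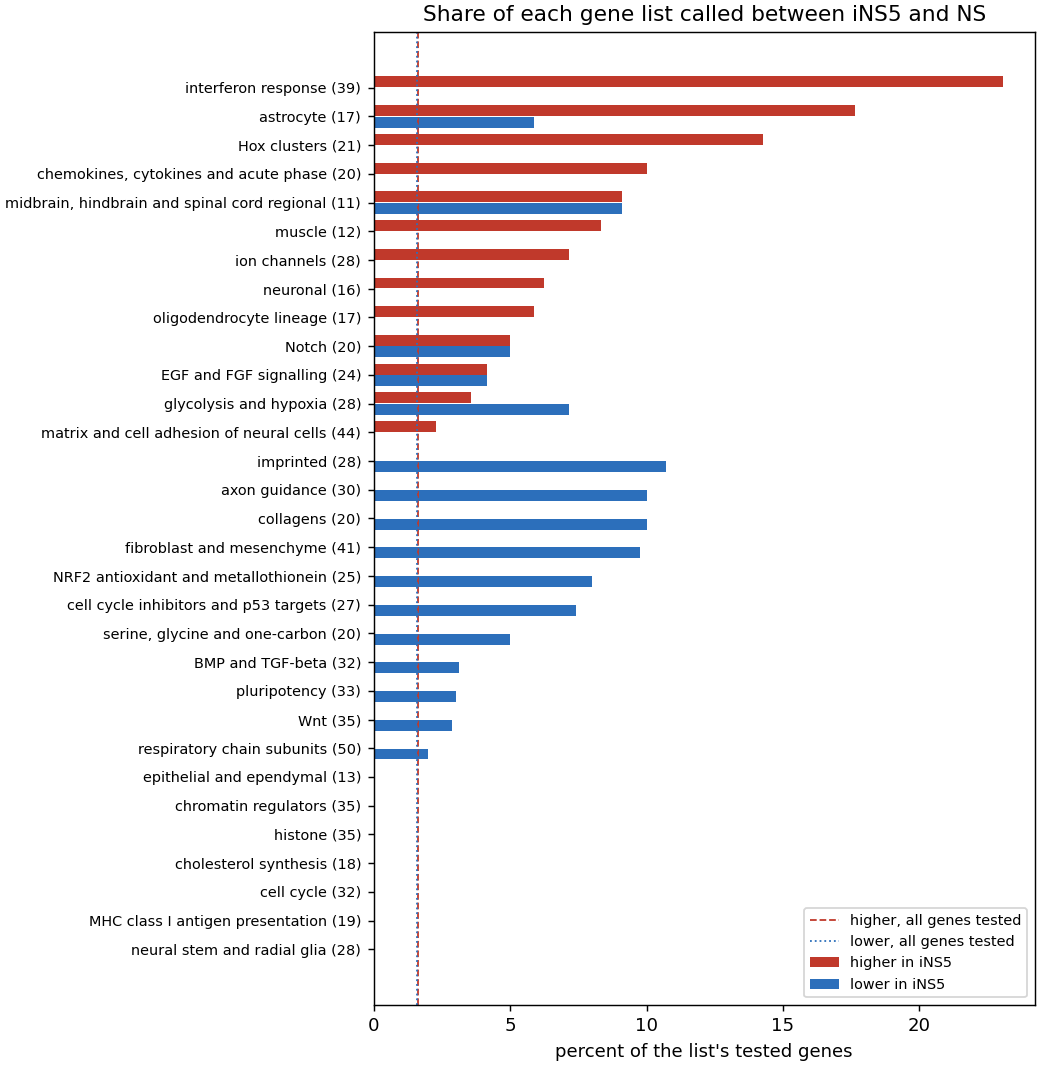
Percent of tested members called higher and lower in iNS5 than in NS (horizontal axis) for each gene list with at least 10 tested members, whose number stands in brackets. The astrocyte list has 23.5%, the interferon list 23.1% and the midbrain, hindbrain and spinal cord list 18.2% of members called in either direction, and the neural stem, cell cycle, histone and cholesterol lists have 0%; the vertical lines mark the shares over all genes, 1.64% and 1.59%.

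Sex-linked genes differed between the lines. Xist, the RNA that coats the inactive X chromosome of female cells, had 4.73, 4.50, 4.50 and 4.98 in iNS5 and 10.71, 10.85 and 10.78 in NS, at least 43.7-fold lower, and 3 other probes gave -4.05, -5.49 and -5.70. The Y-linked Eif2s3y had 9.83, 10.28, 9.89 and 10.08 in iNS5 and 6.08, 6.06 and 6.14 in NS, 15.2-fold higher. The Y-linked Kdm5d was at background in NS and at least 4.24-fold higher in iNS5. Chromosome medians were taken over genes well above background on every iNS5 and every NS array, which leaves out Xist. The median difference was 0.02 for the 258 such genes of the X chromosome. The medians of chromosomes 1 to 19 lay between -0.12 and 0.09. Differences between iNS5 and NS that come with sex cannot be told apart from others in this pair of lines.

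The same fit set iNS5 against the other 2 clones, which shares the iNS5 arrays with the comparison above. Against iNS2, 148 genes (1.42%) were higher in iNS5 and 65 (0.622%) lower; against iNS3, 233 (2.23%) were higher and 171 (1.64%) lower. With the slide as a term, the counts were 85 and 29 against iNS2 and 120 and 73 against iNS3. The mean profile of iNS5 correlated at 0.9773 with iNS2, 0.9671 with iNS3 and 0.9702 with NS.

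Values against the clones are given for genes named above, which were mostly chosen for their difference from NS. Lxn was at least 93.8-fold lower in iNS5 than in iNS2 and at least 52.2-fold lower than in iNS3. Cdkn2a was at least 45.5-fold lower than in iNS2 and at least 18.4-fold lower than in iNS3 (adjusted p = 3.1e-21 and 5.8e-20). Ilvbl was 10.1-fold and 9.35-fold lower, B9d1 at least 8.37-fold and at least 14-fold lower, and Apeh 5.84-fold and 5.31-fold lower, in the same order of clones.

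On the higher side, Actc1 was 10.2-fold above iNS2 and at least 16.9-fold above iNS3, and Olfml1 at least 13.9-fold and at least 15-fold. Apoe was 7.09-fold higher than in iNS2 and 5.80-fold higher than in iNS3. Vxn, Cox8b, Lcn2, Eno2, Kcna6, Ntm, Ppfibp2 and Cxcl10 were also higher in iNS5 than in both.

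Other differences of iNS5 from NS were not called against the clones. Hoxa5, Xist, Otx2, Nap1l5, Neat1 and Myt1 were called against NS and against neither iNS2 nor iNS3. Ifitm3 was 6.06-fold higher in iNS5 than in iNS3 and 9.17-fold lower than in iNS2. Ndn was at least 11.4-fold higher in iNS5 than in iNS2, which had it on 0 of 3 arrays, and lower than in NS. Flt1, higher in iNS5 than in NS, was 3.89-fold lower than in iNS2 and 5.08-fold lower than in iNS3. Sox2 was 2.42-fold higher in iNS5 than in iNS3 (adjusted p = 0.031) and did not differ past the test from iNS2 or NS.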

How the data were processed

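Illumina MouseWG-6 V2 bead arrays, 21 in all, measured RNA of 6 mouse lines. The authors deposited scanner intensity per probe, and per the file headers each array's second column holds a detection p-value. The submitters' processing notes name GenomeStudio; a second deposited table holds intensity after scaling by the authors, each column rising in a straight line with the scanner signal (largest residual 0.115) to a mean of 379.2 and column medians of 6.7 to 8.3. Its scale is linear and it shows no centring across arrays; its background settings are unknown. Of 45281 probes, 34885 carried 1 symbol, 18 several and 10378 none, and 34807 were matched to the reference annotation. Every value column had a line, and 0 were left over.

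Scanner intensities were corrected and quantile normalised with neqc (controls inferred from detection p-values, offset 16) in limma 3.58.1 under R 4.3.3 and put on the log2 scale. Probes with 1 symbol and a detection p-value under 0.01 on every array of at least 1 line were kept (15972), and the brightest over all arrays stood for its gene (10449 genes). One fit of 6 groups with 15 residual degrees of freedom was tested with treat against a 2-fold change, at a Benjamini-Hochberg adjusted p under 0.05 over all genes. Folds against a line with no array above background are bounds against each array's dimmest detected probe, and where only some arrays were above it, arrays below it were set to that floor. The number of arrays limits the precision.

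The members and the 39 gene lists were chosen with earlier results of these data known. Genes named are the 10 largest differences in each direction among genes measured in both lines, the 8 brightest in each direction among genes measured in only 1, up to 5 called members in each direction of each list, and a fixed set of markers. Some markers of that set are not reported here. The procedure was tested on simulated data of 10449 genes for iNS5 minus NS, where 96 of 100 genes at a log2 change of 2 and 100 of 100 at 3 were recovered with 0 false calls. Alternatives changed the normalisation, offset, filter, probe rule, arrays, slide term, threshold and single arrays. Figures used matplotlib 3.10.9 under Python 3.11.15.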

Additional observations from a re-analysis of the deposited data

Results flagged for a closer look

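For 27 of the 90 named genes, iNS5 differed from both iNS2 and iNS3 in the same direction, each tested in the same limma fit; the log2 difference from the nearer clone is given. These genes were mostly chosen for their difference from NS, and the comparisons share the iNS5 arrays, so nothing is read from their number. Higher in iNS5 were Olfml1 (3.92), Cox8b (3.64), Actc1 (3.36), Vxn (2.96), Lcn2 (2.82), Apoe (2.54), Eno2 (2.50), Kcna6 (2.34), Ntm (2.23), Csmd2 (2.19), Cxcl10 (2.19), Serpina3n (2.15), Ppfibp2 (2.12), Egr2 (1.84), Gad1 (1.64) and Slc1a2 (1.38). Lower in iNS5 were Lxn (-5.84), Cdkn2a (-5.12), B9d1 (-3.72), Ilvbl (-3.23), Apeh (-2.41), Flt1 (-1.96), Pcp4l1 (-1.89), Gbx2 (-1.79), Serpinf1 (-1.79), Cdkn2b (-1.46) and Sema5a (-1.32). Of these, Flt1 was the gene whose difference from NS (1.75) had the other sign. iNS2 and iNS5 shared no slide.

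In 8 of the 68 named genes that were well above background on all iNS5 arrays, 1 iNS5 array stood apart from the other 3. The gap to the nearest array as a share of the iNS5 range was 0.92 for Mfng, 0.92 for Ppfibp2, 0.90 for Fbln2, 0.89 for Nes, 0.88 for Myt1, 0.85 for Supt16, 0.84 for Ifi27 and 0.84 for Serpina3n. Chance gives about 1 such group in 20. The SD over the iNS5 arrays was still small, at most 0.14 on the log2 scale in these genes (Mfng).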

How the results depend on the processing

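No called gene among those named reversed its direction under the 17 alternatives that keep 1 probe a gene; with every probe as its own row, the other probe of Supt16 gave -0.71 and a dim probe of Fbln2 gave 0.01. The largest effect came from the threshold: eBayes in limma against no change called 2226 genes higher and 2779 lower in iNS5 than in NS, 2020 and 2528 against iNS2, 2695 and 3534 against iNS3, and 200 and 212 members of the gene lists. Leaving out 1 array at a time gave 158 to 166 higher and 153 to 165 lower genes against NS. With the slide as a fixed term, 85 genes were higher and 29 lower than in iNS2, and 120 and 73 than in iNS3; an offset of 50 gave 43 lower than in iNS2 and 97 lower than in iNS3. With every probe as its own row, 451 probes were higher in iNS5 than in iNS3; the cause was not tested. Of the 337 genes called against NS, 232 were also called in the same direction within the shared slide, 239 with the slide as a fixed term, 242 with an offset of 50 and 333 with the slide as a random block (correlation 0.0341). An offset of 50 left 1 Hox gene and 4 interferon genes called, and with only the iNS5 and NS arrays in the fit 1 neural stem gene was called. Hoxa4, Otx2, Flt1 and Emcn lost their call with that offset (1.23, -1.24, 0.94 and -1.05), and Txnip within the shared slide (-1.55). Isg15 passed the threshold without NS replicate 2 (1.84), without iNS5 replicate 4 (1.66) and with the values the authors scaled (2.05). Over all genes the median difference lay between -0.07 and 0 under the scalings. No paired analysis was possible because the labels give the arrays no replicate numbers. Arrays of a line are technical replicates and may share a culture, so differences between lines cannot be told apart from differences between cultures, and probes near background give only bounds.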
